A study of Rattus norvegicus with 6 samples.

Results

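Genes of the extracellular matrix and of its turnover were examined in rat pluripotent cells. They were the collagens other than Col4a1 and Col4a2, and the lysyl oxidases that crosslink collagens. With them came the matrix metalloproteinases (MMPs) and ADAMTS proteases that cut matrix proteins, and the TIMP inhibitors of these proteases. Members were chosen by symbol, as Col, Mmp, Timp, Adamts or Lox genes of the array's annotation, and not by their values. They numbered 76 of 14217 genes measured, with 108 probe sets, and a gene with several probe sets is given by the brightest one, judged by the mean over the 6 arrays. By role they were 11 fibrillar collagens, 28 other collagens, 4 lysyl oxidases, 17 MMPs, 4 TIMPs and 12 ADAMTS proteases. A further 18 protein-coding rat genes of RefSeq whose symbols fit the same rule were not analysed here.

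The arrays held total RNA of 3 samples of rat flat pluripotent stem (fPS) cells and 3 samples of rat embryonic stem (ES) cells, all from the Sprague-Dawley strain and all on 1 Affymetrix array each. The labels give the same culture for both groups: a medium with recombinant human LIF, the GSK3 inhibitor CHIR99021 and the MEK inhibitor PD0325901, and maintenance on mouse embryonic fibroblasts blocked with mitomycin C, in DMEM with serum. Colonies were taken off by hand, and no label says how many feeder cells came with them, whether the 3 samples of a group were separate cultures, or how many lines were used. The design text speaks of 3 replications, so the p-values may rest on technical spread alone. A free-text label carried by both groups names ES cells, whereas the titles and cell type labels tell the groups apart.

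Fibrillar collagens are secreted as triple-helical procollagens, trimmed outside the cell and crosslinked by lysyl oxidases into the fibres of connective tissue. Fibroblasts are their main makers, and the feeder fibroblasts of stem cell cultures lay down such a matrix themselves. MMPs and ADAMTS enzymes are zinc proteases that cleave collagens and proteoglycans, and TIMPs bind and block them. In bulk RNA, a larger number of cells of one type and more transcript per cell cannot be told apart.

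Values were linear intensities as deposited, and differences are of log2(intensity + 16), fPS minus ES, tested with limma with Benjamini-Hochberg adjustment over 31042 probe sets at a threshold of 0.05 on the adjusted p. Intensities of different probe sets depend on their probes, so words such as dim, bright or above the middle value describe a probe set's signal and do not rank genes by transcript amount. The median over all 14217 genes of the mean log2 value was 6.68, an intensity of 86.7. Of the 76 members, 14 lay above that middle value, and 60 were below an intensity of 86.7 on every array. Markers of pluripotent cells were clearly present: of 18 listed, 11 had a probe set, 9 of them above the middle value, with Epcam, an epithelial adhesion protein, at 3432 to 3616 on the fPS arrays and 3197 to 4136 on the ES arrays. The list's Pou5f1 and Nanog were not analysed here. Several fibrillar collagens were far higher on replicate 3 than on the other arrays of its group, in both groups. This is described first, and results that rest on it are given with and without it. The 28 other collagens did not share it as a class: their mean log2 values were 5.52, 5.22 and 5.38 on the fPS arrays and 5.13, 5.31 and 5.12 on the ES arrays.

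Promoters of 4 genes are shown because the values of their genes ran together or in opposite ways over the arrays: Col1a2 and Col5a2, collagen chains with the widest spread, Timp2, which was high on the same arrays, and Timp1, which was low on them. Each run is the 250 bases before the RefSeq start on the build GRCr8, read 5′ to 3′ along the gene: Col1a2 at chr4:33518307-33518556 (plus strand), Col5a2 at chr9:55090152-55090401 (minus strand), Timp2 at chr10:104089215-104089464 (minus strand) and Timp1 at chrX:3771123-3771372 (minus strand). Capitals mark matches on either strand to any of 4 motifs, the CCAAT box, the TATAAA box, the Sp1-type motif GGGCGG and the AP-1-type motif TGANTCA, and no 2 matches overlap here.
Col1a2: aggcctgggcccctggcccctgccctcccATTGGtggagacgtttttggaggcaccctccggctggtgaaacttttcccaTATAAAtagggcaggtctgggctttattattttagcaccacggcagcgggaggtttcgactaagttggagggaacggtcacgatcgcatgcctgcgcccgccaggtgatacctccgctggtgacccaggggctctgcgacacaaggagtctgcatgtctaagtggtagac
Col5a2: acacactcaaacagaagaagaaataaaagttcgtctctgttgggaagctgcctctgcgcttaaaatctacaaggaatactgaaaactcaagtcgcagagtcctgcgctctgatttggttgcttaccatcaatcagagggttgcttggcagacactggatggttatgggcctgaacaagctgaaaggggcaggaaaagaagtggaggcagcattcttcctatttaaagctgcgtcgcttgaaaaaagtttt
Timp2: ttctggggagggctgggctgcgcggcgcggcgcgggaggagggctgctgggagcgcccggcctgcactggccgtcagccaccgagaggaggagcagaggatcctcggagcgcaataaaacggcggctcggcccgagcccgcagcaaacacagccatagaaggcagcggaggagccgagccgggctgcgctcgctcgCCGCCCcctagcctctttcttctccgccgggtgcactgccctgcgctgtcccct
Timp1: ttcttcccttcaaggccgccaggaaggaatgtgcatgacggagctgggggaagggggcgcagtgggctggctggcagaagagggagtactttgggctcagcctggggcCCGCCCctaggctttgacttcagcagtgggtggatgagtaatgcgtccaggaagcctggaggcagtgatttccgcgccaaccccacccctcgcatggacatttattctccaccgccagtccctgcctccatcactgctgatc
The Col1a2 window held CCAAT on the opposite strand at 221 to 217 bases before the start and TATAAA at 170 to 165 bases before it. The Timp2 and Timp1 windows each held GGGCGG on the opposite strand, at 54 to 49 and at 142 to 137 bases before the start. The Col5a2 window held none of the 4 motifs. Over 33469 rat promoters the same window held CCAAT in 34.0%, TATAAA in 12.9%, GGGCGG in 30.5% and TGANTCA in 6.34%, and over the 54 members listed in that table in 25.9%, 24.1%, 50.0% and 11.1%. A match is a description of the sequence only.

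The widest spread among the members lay within the groups. Col1a2, a chain of type I collagen, the main collagen of skin and bone, had intensities of 126, 112 and 541 on fPS arrays 1 to 3, against 4.03, 53.1 and 712 on ES arrays 1 to 3. Replicate 3 was thus the highest array of each group by a wide margin, and the groups overlapped. Col5a2, a chain of type V collagen, which starts and thins type I fibrils, had 105, 112 and 487 on the fPS arrays, against 16.9, 68.5 and 765 on the ES arrays, and was again highest on replicate 3 in each group. Col3a1, the chain of type III collagen of soft tissues, had 99.6, 82.6 and 178 on the fPS arrays, against 24.7, 54.7 and 323 on the ES arrays. Col3a1 and Col5a2 are next to each other on chromosome 9, whereas Col1a2 lies on chromosome 4. Col1a1, the partner chain of Col1a2 on chromosome 10, had 90.9, 81.8 and 199.8 on the fPS arrays and 41.5, 81.2 and 251 on the ES arrays.

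**Figure D1:**
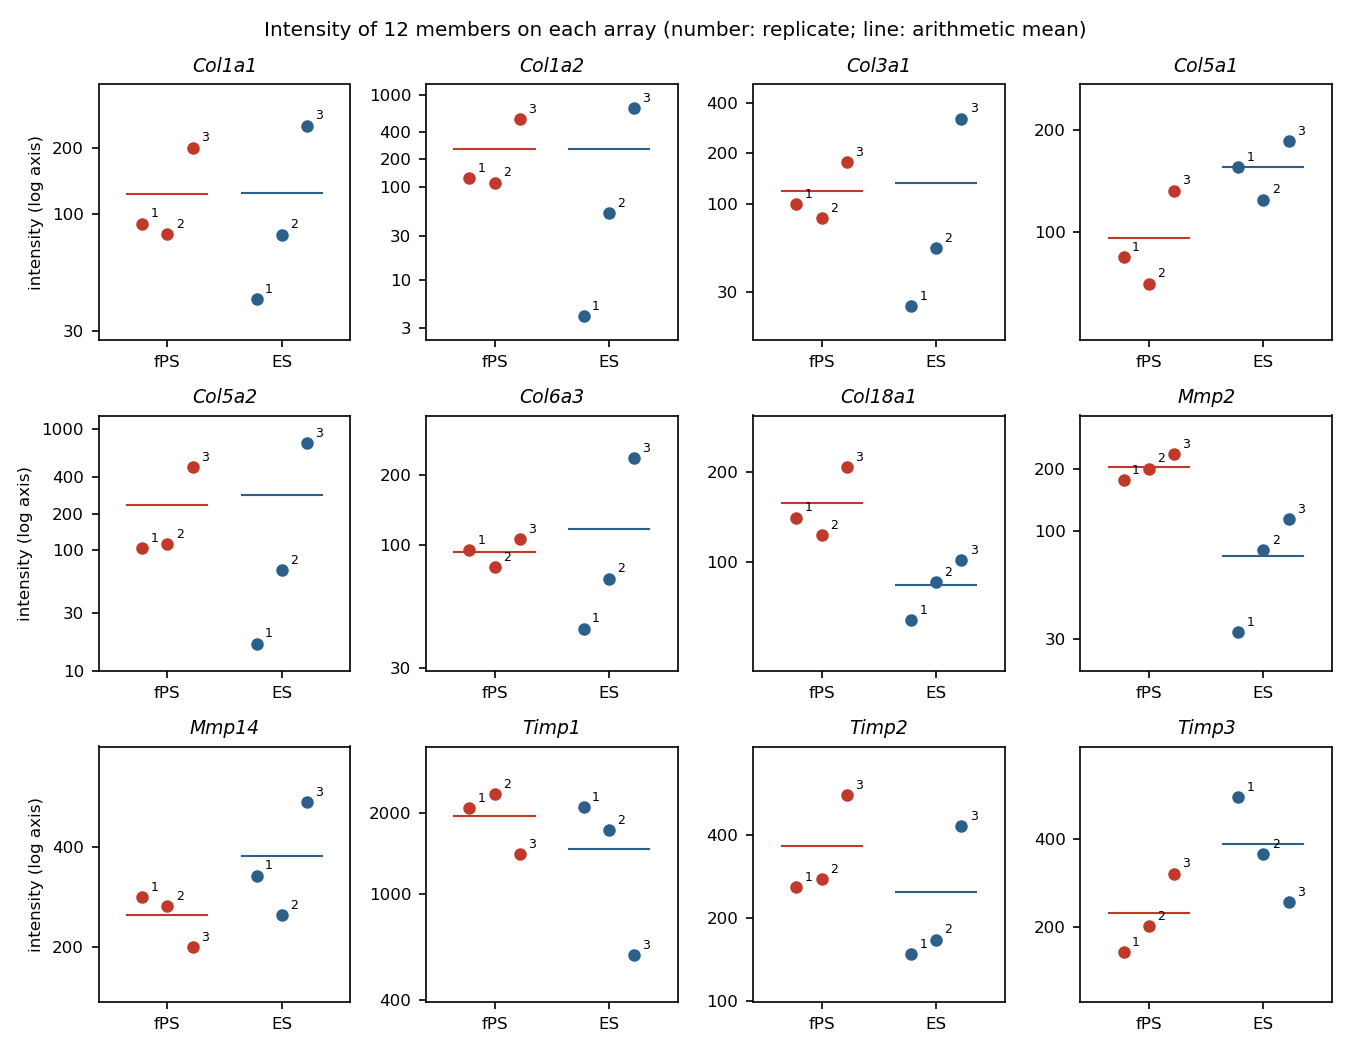
Intensity (log axis) of 12 members on each array, fPS cells left and ES cells right in each panel, with the replicate number beside each point and a line at the arithmetic mean of 3 arrays. Col1a1, Col1a2, Col3a1, Col5a2 and Timp2 are among those highest on replicate 3 in both groups, Timp1 is lowest on it in both, and only Col18a1 and Mmp2 have groups that do not overlap.

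None of these 4 chains passed the test between the groups. The log2 difference was 1.11 (SE 1.14, adjusted p = 0.717) for Col1a2, 0.61 (SE 1.04, adjusted p = 0.849) for Col5a2, 0.40 (SE 0.678, adjusted p = 0.851) for Col3a1 and 0.20 (SE 0.538, adjusted p = 0.917) for Col1a1. Their sign rested on single arrays. Without ES replicate 1 the differences were -0.049, -0.38, -0.25 and -0.30 in that order, and without ES replicate 3 they were 2.54, 1.91, 1.28 and 0.81. Without fPS replicate 3 those of Col5a2 and Col1a1 were -0.061 and -0.16. With both replicate 3 arrays left out they were 1.86, 1.24, 0.99 and 0.45, and 0 of the 76 members passed (the lowest adjusted p among the 33 named was 0.182, at Col5a3). Arithmetic means of intensity give most weight to the high replicate 3 arrays. By them Col1a1 averaged 124 ± 65.6 in fPS and 125 ± 111 in ES cells (SD, n = 3 each, here and below). Col1a2 averaged 260 ± 243 in fPS and 256 ± 395 in ES cells. Col5a2 averaged 235 ± 219 in fPS and 283 ± 418 in ES cells, and Col3a1 120 ± 51.1 and 134 ± 164.

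The other 7 fibrillar chains did not share one order of arrays. Col5a1, the partner chain of Col5a2, had 84.8, 70.8 and 133 on the fPS arrays and 155, 125 and 185 on the ES arrays, again highest on replicate 3 in each group. The difference of Col5a1 was opposite in sign to that of Col5a2, with a log2 difference of -0.63 (SE 0.263, adjusted p = 0.295) that kept its sign in each of the 16 alternatives, from -0.86 to -0.40. The other Col5a1 probe set had 69.0, 69.4 and 143 on the fPS arrays and 71.3, 70.0 and 206 on the ES arrays. Its log2 difference was only -0.18 (adjusted p = 0.900). Col5a3, the third chain of type V collagen, had 23.3, 27.4 and 48.6 on the fPS arrays, against 4.35, 3.98 and 3.71 on the ES arrays. Every fPS array was above every ES array, and the ES values, at most 4.35, were below the lower quartile of those arrays (9.497 to 11.9). Its log2 difference of 1.26 (SE 0.238, adjusted p = 0.0550) had the smallest adjusted p of the 76 members and did not pass. With values so low the size of the difference rests on the pseudocount, at 2.70 with 1 and 0.50 with 64. It passed when the probe sets of each gene were averaged (adjusted p = 0.0470), a setting with fewer tests. Col5a3 has a single probe set, so its own difference stayed at 1.26 there. Its adjusted p ran up to 0.218 over the alternatives. Col27a1 and Col24a1, fibrillar chains of cartilage and bone, were also without overlap but dim, at 11.3 to 21.0 and 2.09 to 17.1 on the fPS arrays, against 3.12 to 8.501 and 1.41 to 1.69 on the ES arrays (log2 differences 0.51 and 0.60, adjusted p = 0.317 and 0.331). Col2a1 and Col11a1, the chains of cartilage fibrils, and Col11a2 stayed below an intensity of 70 on all arrays, with differences of 0.033, -0.21 and 0.33.

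Counted over the class, 6 of 11 fibrillar collagens were highest on replicate 3 in both groups, or 54.5%, against 10.6% of all genes. These 6 were Col1a1, Col1a2, Col3a1, Col5a1, Col5a2 and Col24a1. The dim Col24a1 was so only narrowly, at 17.1 against 15.3 on fPS replicate 1 and at 1.69 against 1.65 on ES replicate 1. Within single groups replicate 3 was the highest array for 7 of 11 in fPS cells, where it was so for 22% of all genes, and for 7 of 11 in ES cells, where it was so for 45.7% of all genes. Among the other members the count was 4 of 28 other collagens, 2 of 4 lysyl oxidases, 1 of 17 MMPs, 1 of 4 TIMPs and 0 of 12 ADAMTS proteases. Among the 14 members of any class above the middle value it was 9, or 64.3%, against 13.1% of all genes above it. Replicate 3 was singled out after its values were seen, and these counts carry no test. Across the 11 fibrillar genes, the deviation of fPS replicate 3 from the other fPS arrays and that of ES replicate 3 from the other ES arrays had a Pearson's r of 0.92, against 0.066 across all genes. Across all 76 members it was 0.60. The upper quartile of all probe sets was 142 on fPS replicate 3, against 158 and 171 on the other fPS arrays, and 197 on ES replicate 3, against 152 and 156 on the other ES arrays, so that it was lower on replicate 3 in fPS and higher in ES cells. The points of such a correlation share their arrays, and the labels do not say that a number marks a shared culture.

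**Figure D2:**
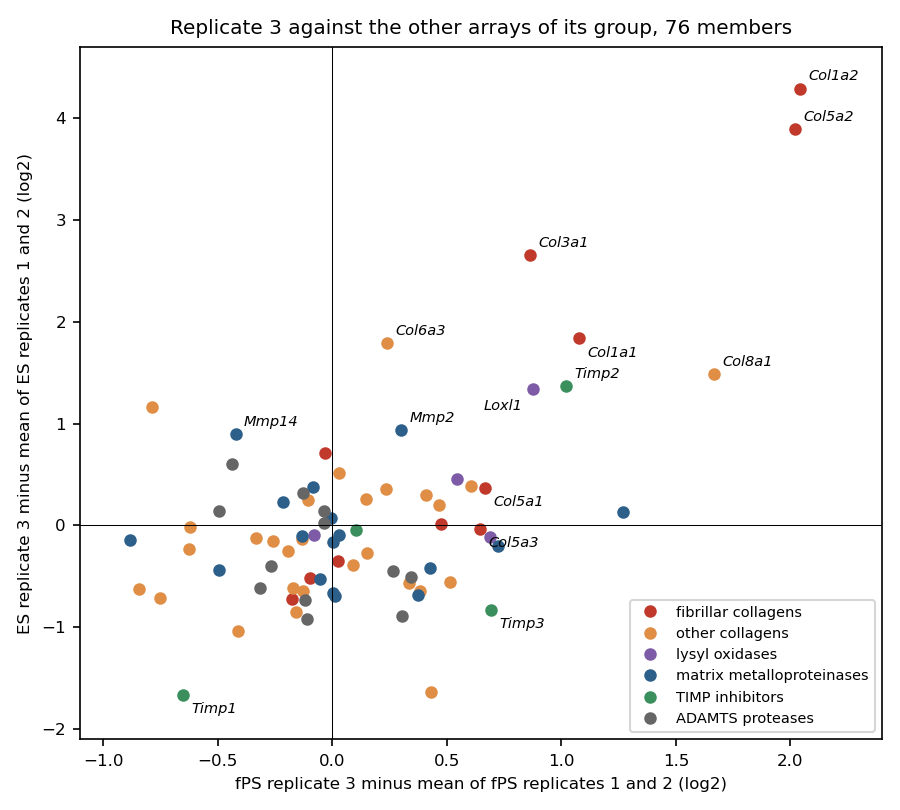
Deviation of replicate 3 from the mean of replicates 1 and 2 (log2) in fPS cells (horizontal axis) and in ES cells (vertical axis), 1 point per member and 1 colour per class, with selected members named. Col1a2 and Col5a2 lie at the top right, Timp1 at the bottom left and most members near the origin.

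Part of the fibroblast markers outside the rule were high on the same arrays. Of 25 listed, 24 were measured, 5 above the middle of all genes, and 12, or 50.0%, were highest on replicate 3 in both groups, against 10.6% of all genes. The same share held for smooth muscle markers, with 3 of 6, and it was 35.3%, or 6 of 17, for genes of collagen synthesis and processing. Over the 24 fibroblast markers the mean log2 value was 6.04, 5.93 and 6.33 on fPS arrays 1 to 3. On ES arrays 1 to 3 it was 5.62, 5.61 and 6.35. That of the fibrillar collagens was 5.99, 5.98 and 6.67 on the fPS arrays and 5.30, 5.63 and 6.57 on the ES arrays. Vim, the intermediate filament protein of mesenchymal cells, had 181, 122 and 614 on the fPS arrays, against 2.09, 55.0 and 481 on the ES arrays. Dcn, a proteoglycan that binds collagen fibrils, had 40.7, 34.0 and 131 on the fPS arrays and 13.4, 18.5 and 126 on the ES arrays. The low end of the list held Twist2 at 1.34 to 2.75 on the fPS arrays and 1.90 to 3.21 on the ES arrays, and Prrx1 was lowest on replicate 3 in fPS cells. Ccn2 and Pdgfrb were likewise lowest on fPS replicate 3, at 353 and 10.0, Cd44 was lowest on ES replicate 3, at 22.1, and Fstl1 was highest on ES replicate 1, at 165. None of the 24 passed the test, and 7 of them also stand in the list of elastic fibre and proteoglycan genes. The part of feeder RNA in the collagen values was not tested.

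**Figure D3:**
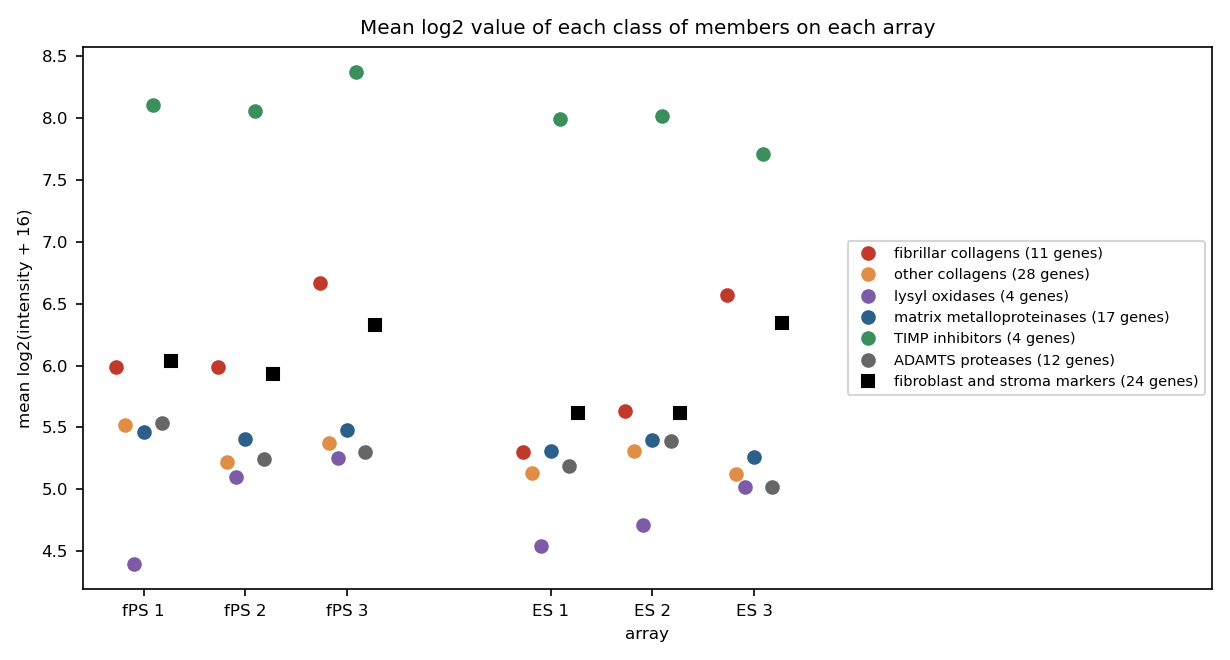
Mean log2(intensity + 16) of the members of each class on each of the 3 fPS and 3 ES arrays (circles), and of 24 fibroblast and stroma markers that are not members (squares); heights are comparable between arrays, not between classes. Fibrillar collagens, lysyl oxidases and fibroblast markers are highest on replicate 3 of each group. There they are at 6.67, 5.25 and 6.33 on the fPS array and at 6.57, 5.02 and 6.35 on the ES array. ADAMTS proteases are at 5.30 on fPS replicate 3 and 5.02 on ES replicate 3.

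Several of these genes had a second probe set. Both Col1a1 probe sets followed replicate 3, the dimmer one with 25.01, 39.0 and 184 on the fPS arrays and 5.15, 15.5 and 145 on the ES arrays. The dimmer Col1a2 probe set did not, with 37.2, 7.61 and 3.72 on the fPS arrays and 4.28, 28.4 and 17.8 on the ES arrays, and neither did that of Col5a2, with 32.6, 2.501 and 21.99 on the fPS arrays and 14.2, 23.7 and 13.96 on the ES arrays. Of the 25 members with several probe sets, 14 had one whose difference was of the opposite sign to that of the brightest.

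Over all 76 members, 0 passed the limma test between fPS and ES cells in either direction, where 0.858% of all genes passed, 0.57% higher and 0.288% lower. Without adjustment, 10 members had p under 0.05, 8 higher and 2 lower in fPS cells, or 13.2%, against 17.5% of all genes (8.59% higher and 8.88% lower). The fPS arrays were all above the ES arrays for 11 members and all below for 1, where 11.3% and 11.3% of all genes were so. The members' share of higher ones, 14.5%, was thus close to that of all genes. The median log2 difference over the members was 0.22, against -0.000046 over all genes, and 54 of 76 were positive. The members share their arrays, and their median log2 values per array overlapped between the groups. These were 5.41, 5.20 and 5.27 on the fPS arrays and 4.94, 5.26 and 4.88 on the ES arrays, with an SD between replicates of 0.163. The median difference also depended on the pseudocount, at 0.44 with 1 and 0.12 with 64. Most members are dim, and dim genes leaned to positive values in general: of the 7109 genes below the middle value 59.9% were positive (median 0.079), against 71.0% of the 62 members below it (median 0.21), and of the 7108 genes above it 40.04% were positive (median -0.098). Of the 14 members above the middle value, 10 were positive, or 71.4% (median 0.44). Of the positive ones, Col1a1, Col1a2, Col3a1 and Col5a2 turned negative without ES replicate 1, and Timp1 without ES replicate 3. Col18a1, Mmp2, Mmp17, Timp2 and Adamts7 stayed positive without any 1 array. The negative Col6a3 turned positive without ES replicate 3. Medians of the 14 per array overlapped between the groups and were highest on replicate 3 in each. They were 7.31, 7.24 and 7.89 on the fPS arrays and 6.68, 6.89 and 8.04 on the ES arrays.

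**Figure D4:**
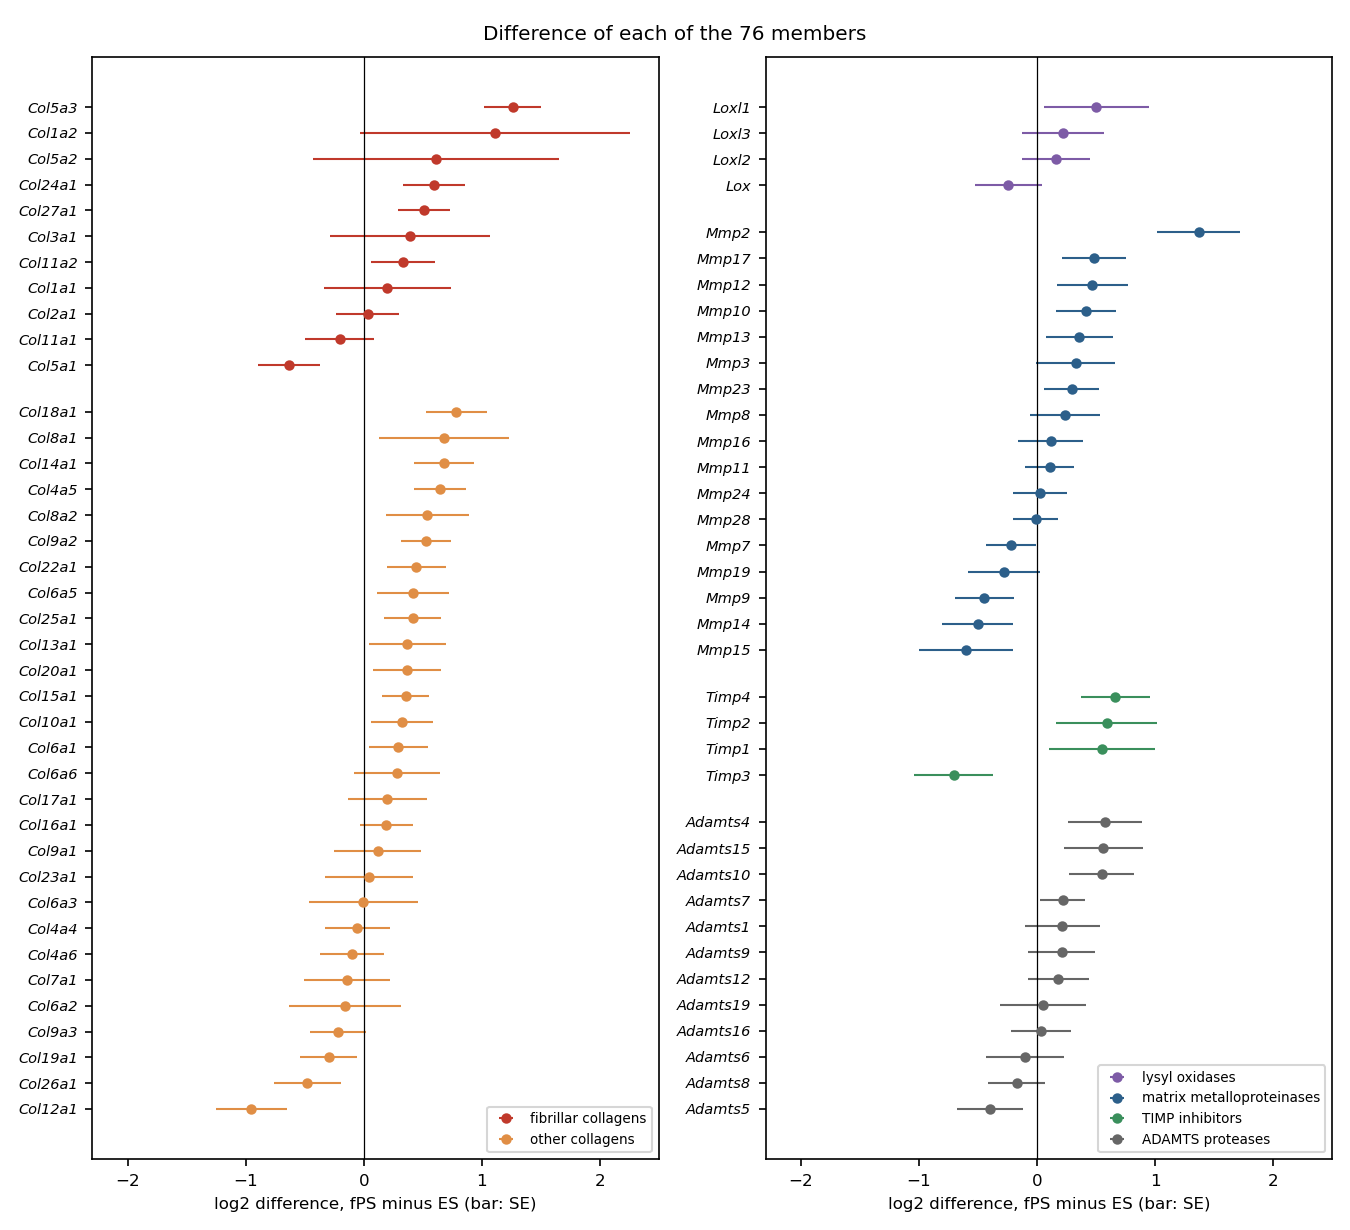
Log2 difference, fPS minus ES, of each of the 76 members, with bars of 1 SE, ordered within classes. At the pseudocount of 16 used here Mmp2 (1.37) and Col5a3 (1.26) lie farthest to the right, Col1a2 (1.11) and Col5a2 (0.61) have the longest bars, and no member passed the test.

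Of the 28 collagens outside the fibrillar class, 0 passed, 5 were higher without overlap, or 17.9% against 11.3% of all genes, 1 was lower, and 24 were below an intensity of 86.7 on every array. Col18a1, a basement membrane collagen whose end fragment is endostatin, had 140, 123 and 207 on the fPS arrays, against 63.7, 85.5 and 101 on the ES arrays. The groups did not overlap, and the log2 difference of 0.78 (SE 0.258, adjusted p = 0.193) did not pass. Its other probe set gave 0.98, with 70.1, 101 and 191 on the fPS arrays and 46.1, 28.4 and 82.2 on the ES arrays. Col4a5, a chain of the basement membrane network on chromosome X, had 34.1, 32.5 and 49.4 on the fPS arrays and 15.3, 17.4 and 23.7 on the ES arrays (log2 difference 0.65, adjusted p = 0.205).

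Col9a2, a chain of a collagen that sits on the surface of cartilage fibrils, had 89.2, 94.3 and 74.0 on the fPS arrays, against 49.4, 65.5 and 49.5 on the ES arrays, a log2 difference of 0.53 (SE 0.208, adjusted p = 0.271). Col15a1 and Col14a1 were likewise without overlap and higher in fPS cells, with log2 differences of 0.35 and 0.68 (adjusted p = 0.463 and 0.252). The other probe set of Col14a1 gave -0.17 and that of Col15a1 0.035. The single collagen that was lower without overlap was Col12a1, a fibril-associated chain, with 2.23, 8.62 and 7.43 on the fPS arrays and 11.5, 42.1 and 31.8 on the ES arrays (log2 difference -0.95, SE 0.302, adjusted p = 0.180). These are dim signals, and its remaining probe sets gave -0.18 and 0.051.

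Col6a3, a chain of the beaded filaments of type VI collagen, had 94.9, 80.6 and 106 on the fPS arrays, against 44.0, 72.0 and 235 on the ES arrays. The spread of this probe set lay almost wholly within ES cells, with an SD of 1.07 on the log2 scale in ES and 0.169 in fPS cells. Its difference of -0.0061 changed sign in 6 of 16 alternatives, among them 0.59 without ES replicate 3. The dimmer Col6a3 probe set was lowest on ES replicate 3, with 32.3, 23.9 and 29.1 on the fPS arrays and 25.5, 13.4 and 11.9 on the ES arrays. It gave a log2 difference of 0.45. Col6a1 was flatter, with 66.1, 53.2 and 60.9 on the fPS arrays and 29.2, 50.8 and 62.5 on the ES arrays. Col16a1, a fibril-associated collagen, had 106, 69.4 and 78.9 on the fPS arrays and 73.8, 59.9 and 81.8 on the ES arrays, a log2 difference of 0.19 (adjusted p = 0.760). Col8a1, a network collagen of vessel walls, was again highest on replicate 3, at 78.9 in fPS and 38.7 in ES cells, and lay between 8.74 and 20.2 on the other fPS arrays and at 3.35 and 3.61 on the other ES arrays.

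The lysyl oxidases were dim on all arrays. None of the 4 exceeded an intensity of 44.4, none passed and none had groups without overlap. Loxl1, an enzyme of elastic fibre assembly, had 8.42, 28.2 and 44.4 on the fPS arrays and 3.31, 6.48 and 36.7 on the ES arrays (log2 difference 0.50, adjusted p = 0.656). Lox itself had 3.42, 7.40 and 18.3 on the fPS arrays and 8.19, 22.1 and 11.99 on the ES arrays, a log2 difference of -0.24 (adjusted p = 0.754), and its other probe set gave 0.22. Loxl2 and Loxl3 had differences of 0.16 and 0.22, and their sign turned in 2 and 1 of 15 alternatives, to -0.093 for Loxl2 without ES replicate 2 and to -0.15 for Loxl3 without fPS replicate 2.

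Of 17 MMPs, 0 passed, and 2, Mmp2 and the dim Mmp10, were higher in fPS cells without overlap. At a pseudocount of 16 Mmp2 had the largest difference of the members, an order that changed with a pseudocount of 1, where Col5a3 was at 2.70 and Mmp2 at 1.59. This gelatinase, which degrades denatured and basement membrane collagen, had 177, 202 and 236 on the fPS arrays, against 32.2, 81.1 and 115 on the ES arrays. All fPS arrays were above all ES arrays, and the log2 difference was 1.37 (SE 0.352, adjusted p = 0.113). With the dimmest 50% of probe sets left out, which leaves fewer tests, its adjusted p was 0.0339, and over all 16 alternatives it ran from 0.0339 to 0.359 with differences from 0.96 (without ES replicate 1) to 1.68 (without ES replicate 3). The other Mmp2 probe set had 56.8, 76.6 and 259 on the fPS arrays and 16.8, 35.3 and 204 on the ES arrays, so that it was highest on replicate 3 in both groups and overlapped (log2 difference 0.78, adjusted p = 0.676).

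Mmp14, the membrane-bound collagenase that activates pro-Mmp2 together with Timp2, had 282, 266 and 200.3 on the fPS arrays and 328, 250.2 and 547 on the ES arrays. Its difference was -0.50 (SE 0.301, adjusted p = 0.486), and -0.063 with both replicate 3 arrays left out. Mmp17, a membrane-anchored MMP, had 183, 256 and 296 on the fPS arrays, against 147, 234 and 135 on the ES arrays (log2 difference 0.48, adjusted p = 0.458). Mmp24, a further membrane-bound MMP, had 64.6, 77.7 and 58.8 on the fPS arrays and 48.7, 75.9 and 74.4 on the ES arrays, with a difference of 0.024 that changed sign in 4 of 16 alternatives. Its other probe sets gave -0.11 and -0.34. The 6 secreted MMPs on chromosome 8, the stromelysins Mmp3 and Mmp10, the collagenases Mmp8 and Mmp13, the matrilysin Mmp7 and the elastase Mmp12, did not exceed an intensity of 36.2 on any array. Their log2 differences lay between -0.22 and 0.47 (adjusted p from 0.492 to 0.777). Mmp9, the other gelatinase, was at 3.64 to 3.83 on the fPS arrays and at 3.60 to 19.5 on the ES arrays, a log2 difference of -0.45 (adjusted p = 0.455).

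The 4 TIMPs ran in different directions over the arrays. Timp1, a broad MMP inhibitor, had 2079.7, 2358 and 1404 on the fPS arrays, against 2106, 1722 and 589.8 on the ES arrays, lowest on replicate 3 in each group, where the fibrillar collagens were highest. Its log2 difference of 0.55 (SE 0.450, adjusted p = 0.625) rested on that ES array: without ES replicate 3 it was -0.0010. Timp2, which binds Mmp2 and Mmp14, had 259, 276 and 558 on the fPS arrays and 148, 167 and 431 on the ES arrays, highest on replicate 3 in each group. The groups overlapped (log2 difference 0.59, SE 0.429, adjusted p = 0.576). The difference was 0.25 without fPS replicate 3, 1.05 without ES replicate 3 and 0.71 with both left out. The other, dimmer Timp2 probe set was also highest on replicate 3 in each group and gave -0.11.

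Timp3, the inhibitor that stays bound to the matrix, had 164, 201 and 304 on the fPS arrays, against 553, 354 and 242 on the ES arrays. Replicate 3 was its highest array in fPS and its lowest in ES cells. The log2 difference was -0.71 (SE 0.334, adjusted p = 0.362), and -1.21 with both replicate 3 arrays left out (adjusted p = 0.200, where the range over the alternatives reached 0.654). Its 3 other probe sets gave -0.44, -0.25 and -0.085. Timp4 was dim, with 40.2, 18.0 and 30.9 on the fPS arrays and 5.15, 22.5 and 11.7 on the ES arrays (log2 difference 0.66, adjusted p = 0.320).

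Of the 12 ADAMTS proteases 0 passed, and 11 were below an intensity of 86.7 on every array. Adamts7, an enzyme that cleaves cartilage oligomeric matrix protein, was the exception, with 146, 150 and 144 on the fPS arrays and 116, 122 and 133 on the ES arrays. The groups did not overlap, but the log2 difference was only 0.22 (SE 0.190, adjusted p = 0.653). Adamts9, which cleaves versican, had 84.5, 52.8 and 60.5 on the fPS arrays and 78.4, 56.8 and 33.7 on the ES arrays (log2 difference 0.21, adjusted p = 0.794, and -0.035 without ES replicate 3). The aggrecanases Adamts4 and Adamts5 overlapped between the groups, with 37.6 to 45.2 and 18.6 to 22.4 on the fPS arrays, against 7.35 to 37.7 and 15.5 to 43.9 on the ES arrays. Their log2 differences were 0.58 and -0.40 (adjusted p = 0.433 and 0.561). That of Adamts4 was 0.22 without ES replicate 1, and the other Adamts5 probe set, under 5 on all arrays, gave 0.12.

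Members also differed in how much they varied within a group. The median SD on the log2 scale was 0.34 in fPS and 0.41 in ES cells over the 76 members, against 0.27 and 0.30 over all genes. Below the middle value it was 0.32 and 0.41 over 62 members, against 0.30 and 0.31 over 7109 genes. Above the middle value it was 0.39 and 0.77 over 14 members, against 0.25 and 0.29 over 7108 genes. The widest were Col1a2, with an SD of 1.18 in fPS and 2.63 in ES cells, and Col5a2, with 1.17 and 2.35.

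Genes that make, bind or cut collagen but are no members were set beside them. Of 24 genes of collagen synthesis and processing, 17 were measured, 0 passed, and 6 were higher and 1 lower in fPS cells without overlap. The higher ones were 35.3% of the list, against 11.3% of all genes. Serpinh1, the collagen chaperone Hsp47, had 176, 157 and 285 on the fPS arrays, against 42.6, 36.1 and 122 on the ES arrays (log2 difference 1.53, SE 0.390, adjusted p = 0.110). P4ha2, a catalytic subunit of prolyl 4-hydroxylase, had 175, 240 and 174 on the fPS arrays and 42.9, 85.3 and 90.3 on the ES arrays (log2 difference 1.29, adjusted p = 0.0769). P4hb and Ppib, the list's brightest genes, which fold procollagen and many other proteins, had differences of 0.11 and -0.10. The list's median difference was 0.11, below that of the members.

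Of 8 collagen receptor genes, 5 were measured and 0 passed, with Ddr1, a receptor kinase for collagen, at 241, 252 and 183 on the fPS arrays and 129, 90.1 and 96.0 on the ES arrays (log2 difference 0.998, adjusted p = 0.0875), and Itgb1, the integrin β1 chain, with a difference of 0.011. Of 19 other matrix proteases and regulators, 17 were measured, 0 passed, and 6 were higher, again 35.3% against 11.3% of all genes, and 1 lower without overlap. Plaur, the urokinase receptor, had 47.9, 61.4 and 105 on the fPS arrays, against 12.2, 3.04 and 22.7 on the ES arrays (log2 difference 1.62, adjusted p = 0.0640). Bsg and Adam19, its brightest, had differences of 0.12 and -0.45. Of 21 elastic fibre and small proteoglycan genes, all measured, 0 passed, and 3 were higher, or 14.3%, and 2 lower without overlap. Mfap5 and Fbln1, its brightest, had differences of -0.25 and 0.67.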

How the data were processed

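Biotin-labelled RNA of 6 samples was hybridised to Affymetrix arrays, 1 per sample. Per the deposited table's range, its values are intensities on a linear scale. How probes were summarised and arrays scaled is, for these arrays, not given in the sources used here. In all, the table held 31099 probe sets and 0 columns that could not be mapped, and 57 controls were left out. The median of the arrays lay between 36.2 and 45.3. No detection calls were at hand, and the number of arrays limits the precision.

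Symbols came from the platform annotation, and the identifiers of all 76 members were found in RefSeq (GRCr8) under the same symbol. Promoter sequences are from RefSeq, GRCr8. Values were log2(intensity + 16), with no further scaling or filter. The comparison of fPS with ES cells used lmFit and eBayes of limma 3.58.1 (R 4.3.3), checked on simulated data. Tables and figures used Python 3.11.15 with pandas 2.3.3 and matplotlib 3.10.9.

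The members and lists were chosen with earlier results of these data known. Members given with values were those past the threshold, the brightest of each class (4 per class, and all TIMPs and lysyl oxidases), and, among members above the middle value of all genes, the 3 largest differences each way and the 3 widest ranges within a group. That rule gave 25 members. A further 8, without overlap between the groups or with an unadjusted p under 0.05, and others named with values, were chosen after their values were seen. Marker lists covered pluripotent cells, fibroblasts, smooth muscle, endothelium, blood, extraembryonic endoderm, and cartilage and bone. The alternatives were quantile normalization, median centring, pseudocounts of 1 and 64, leaving out the dimmest 50% of probe sets, trend and robust moderation, a block on replicate numbers, averaging the probe sets of a gene, leaving out probe sets marked as less specific, leaving out each array, and, added after the data were seen, leaving out both replicate 3 arrays.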

Additional observations from a re-analysis of the deposited data

How the results depend on the processing

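The count of members past the threshold was 0 with all 6 arrays, without any 1 array (0 to 0) and in 14 of 16 alternatives. It was 1 without the dimmest 50% of probe sets (Mmp2) and 1 with the mean over probe sets (Col5a3). The members' median difference moved beyond the spread between replicates only with a pseudocount of 1 (0.44), was 0.12 with 64, and without single arrays it ran from 0.17 to 0.31. Over all genes 122 passed, and 203 with centred arrays, 0 and 26 with pseudocounts of 1 and 64, 506 without the dimmest 50%, 358 with trend and robust moderation, 64 with the replicate block, 0 to 93 without single arrays and 0 without both replicate 3 arrays. Where limma called 0, the probe sets at an unadjusted p under 0.05 numbered 3943 with a pseudocount of 1, and, with 16, 3824 without ES replicate 1, 3215 without fPS replicate 2 and 4618 without both replicate 3 arrays. Of 215 probe sets past the threshold 124 were higher in fPS cells, and of 376 with centred arrays 152 were. Of the 33 named members, 10 changed sign somewhere. Col6a3 was at 0.074 after quantile normalization, 0.038 with a pseudocount of 1, 0.22 with the mean over probe sets and 0.51 without both replicate 3 arrays. Mmp24 was at -0.036 with centred arrays and -0.14 with the mean over probe sets. Leaving out 1 array gave ranges of -0.44 to 0.59 for Col6a3, -0.14 to 0.11 for Mmp24, -0.38 to 1.91 for Col5a2, -0.049 to 2.54 for Col1a2, -0.30 to 0.81 for Col1a1, -0.25 to 1.28 for Col3a1, -0.093 to 0.33 for Loxl2, -0.15 to 0.55 for Loxl3, -0.035 to 0.43 for Adamts9 and -0.0010 to 0.90 for Timp1. Beyond the arrays left out, the cause of these changes was not tested. The labels do not say that replicate numbers pair the samples, and they were not treated as pairs: over all probe sets, deviations of same-numbered arrays correlated by 0.15, 0.020 and 0.075. ES replicates 1 and 3 correlated best with their own numbers, ES replicate 2 with fPS replicate 3 (0.054). Across the 11 fibrillar collagens alone the values were 0.76, 0.63 and 0.92. Within a group the deviations of a gene cancel out over its arrays, so a large deviation on replicate 3 forces opposite ones on the others. These values are therefore not separate from one another. With the replicate block 0 members passed, and SEs of Col1a2 and Col5a2 were 0.545 and 0.443.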

Other observations

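Markers of extraembryonic endoderm, whose cells secrete a collagen-rich basement membrane, were the marker list with the largest median difference. All 10 listed were measured, 2 of them above the middle value of all genes, and 0 passed the limma test. At an unadjusted p under 0.05, 6 were higher, or 60.0%, against 8.59% of all genes. The median log2 difference was 0.75, and 9 were positive. Afp was at -0.12, and Gata6 at 0.36 (adjusted p = 0.546). Sox17, a transcription factor of endoderm, had 270, 214 and 192 on the fPS arrays, against 52.0, 63.8 and 110 on the ES arrays (log2 difference 1.44, adjusted p = 0.0552). Gata4, a further endoderm factor, had 56.0, 50.9 and 67.7 on the fPS arrays, against 17.3, 20.1 and 21.8 on the ES arrays (log2 difference 1.05, adjusted p = 0.0560). Both had groups without overlap. Sparc, a collagen-binding protein made by fibroblasts and by parietal endoderm, had 678, 625 and 1181 on the fPS arrays, against 184, 161 and 706 on the ES arrays (log2 difference 1.46, adjusted p = 0.220). It was highest on replicate 3 in each group.

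The other marker lists held 0 genes past the threshold. Of 6 smooth muscle genes, all measured, 6 were positive (median 0.41), of 5 endothelial genes 2 were (median -0.20), of 4 blood genes 2 (median 0.12), of 5 cartilage and bone genes 4 (median 0.052) and of 11 pluripotency genes 6 (median 0.026). The pluripotency genes ran both ways: Lin28a, an RNA-binding protein, had 669, 351 and 424 on the fPS arrays, against 1559, 866 and 1161 on the ES arrays (log2 difference -1.30, adjusted p = 0.0933), and Sox2, a pluripotency factor, had 2838, 1856 and 1281 on the fPS arrays, against 3427, 3266 and 4618 on the ES arrays (log2 difference -0.97, adjusted p = 0.181). Both were without overlap, and neither passed. Acan, the main proteoglycan of cartilage, had 40.6, 27.1 and 34.7 on the fPS arrays and 41.8, 48.6 and 13.7 on the ES arrays.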
